A study of Mus musculus with 32 samples.

Results

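Late remission in NZB/W mice given Ad-TACI-Ig and CTLA4Ig is represented by 5 kidneys, which were taken by sample title from the 32 kidneys of the series, and the variation among these 5 is described here. Each kidney was a separate sample on an array of its own. Values are given in the order of replicates 1 to 5. The series was made to follow genes of lupus nephritis through stages of the disease and through induced remission in both NZB/W and NZM2410 mice. The late-remission mice had received CTLA4Ig together with an adenovirus encoding TACI-Ig. The labels give no age for them, and no source used here gives the vector's promoter or how long TACI-Ig was made. Spread in these 5 kidneys was set against 3 other NZB/W groups, namely 7 untreated kidneys from mice 30 weeks old without proteinuria, 8 in early remission after triple therapy (CTX, CTLA4Ig and anti-CD154) and 6 in late remission after the same triple therapy. The remaining 6 kidneys, from NZM2410 mice in remission after Ad-BAFF-R-Ig, are given by their SDs only. All were whole kidneys. The labels do not say whether animals shared a cage, a litter or a preparation day, so the p-values measure only the spread between these samples. The sample names of replicates 2 to 5 share a code that replicate 1 does not have, and its meaning is not stated.

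In lupus nephritis, immune complexes settle in the glomerulus and leukocytes enter the interstitium, while the proximal tubule, which reabsorbs most of the filtrate, loses transport and metabolic genes as it is injured. TACI-Ig is a decoy receptor for BAFF and APRIL, on which B cells and plasma cells depend, and CTLA4Ig blocks the costimulation that T cells need. Mice in remission no longer lose much protein in the urine, but kidneys under the same label can still hold different amounts of leukocyte and tubular RNA. In whole-kidney RNA, fewer cells of a type and less RNA per cell cannot be told apart.

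The deposited values are log2 expression values, so a difference of 1 is a 2-fold difference. Of 15780 named genes, 10791 had a mean of at least 6 over the 5 kidneys, and the SDs below are over these 5 values unless another group is named. Correlations between any pair of the 5 arrays ran from 0.98 to 0.993. The kidney identity was clear: the proximal tubule score, the mean log2 value of 29 genes, was 11.13 to 11.84, and the podocyte score (9 genes) was 7.58 to 7.74. The 3′ probe set of beta-actin exceeded its 5′ probe set by 1.50, 0.66, 0.99, 0.86 and 1.29, a measure that is larger where RNA is shorter, and the array SDs were 1.914, 1.996, 1.973, 1.994 and 1.943. The actin difference was 0.49 to 0.94 in the untreated kidneys and 0.67 to 1.01 in early remission, so replicates 1 and 5 lay above every kidney of both groups. Replicate 3 stood apart in Xist, the RNA that silences an X chromosome in females. Xist measured 10.98, 10.67, 7.81, 10.84 and 11.01, and 9.79 to 10.95 in the other 27 kidneys of the series. Over 294 other X-linked genes with a mean of at least 6, the median difference of replicate 3 from the other 4 kidneys was -0.063, and that of replicate 4 was -0.057. Over 10482 autosomal genes these medians were 0.0077 and 0.023. The study's methods name NZB/W females, but they do not describe the remission kidneys. The cause of the low Xist value was not tested.

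Most genes were nearly level across the 5 kidneys. The median SD was 0.181, and 5% of genes had an SD under 0.0799 and 5% one above 0.44. An SD of at least 0.5 was reached by 370 of the 10791 genes (3.43%), an SD of at least 1 by 57 and an SD of at least 1.5 by 10. Over the same genes the median SD was 0.140 at 30 weeks, 0.138 in early remission, 0.144 in the late triple-therapy group and 0.119 in NZM2410 kidneys, where 224, 184, 234 and 199 genes reached 0.5. Without replicate 3, 453 genes reached it, and without replicate 2, 301. Among genes with an SD of at least 0.5, Gimap7, a lymphocyte GTPase, lay just inside the filter on the mean (mean 6.02, SD 0.76) and Lpxn, a leukocyte adhesion adaptor, just outside it (mean 5.999, SD 0.77).

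**Figure D1:**
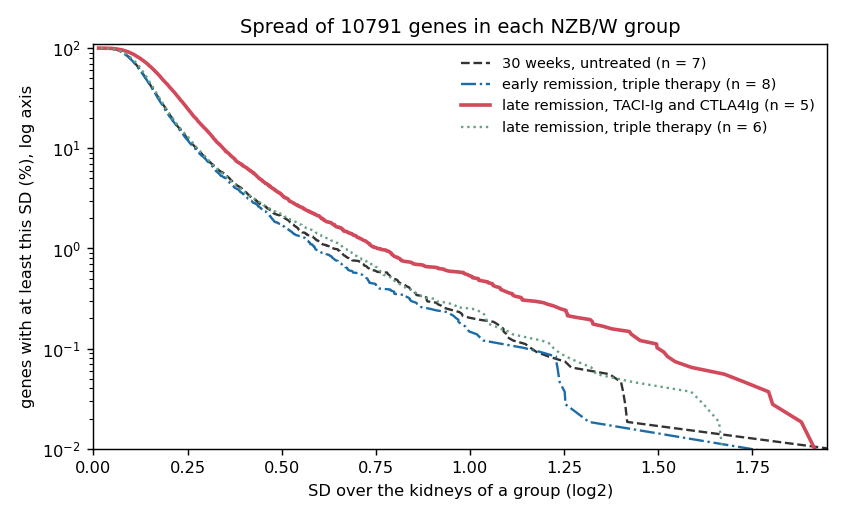
Share of 10791 genes (vertical log axis, in percent) whose SD over the kidneys of a group is at least the value on the horizontal axis (log2). The line of the 5 late-remission TACI-Ig kidneys lies above those of the other NZB/W groups over most of the range, with 370 genes at an SD of 0.5 against 184 to 234.

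Immunoglobulin genes led the ranking. They made up 11 of the 30 genes with the largest SD, and of 19 measured immunoglobulin genes 16 had a mean of at least 6 and 15 an SD of at least 0.5. The largest SD of all, 1.92, was that of Ighg2b, a heavy chain constant gene of class-switched antibody, with 8.62, 7.05, 9.56, 4.54 and 8.07. Replicate 4 was lowest and replicate 3 highest. The deposited values carry no detection call, and a value this low may be background, so fold ranges are given only for genes whose lowest value is at least 6. Ighm, the constant gene of IgM, measured 9.55, 8.53, 10.30, 6.34 and 9.60. The light chain gene Igkv15-103 measured 7.73, 7.02, 9.04, 4.46 and 6.66. All 11 immunoglobulin genes of the top 30 were lowest in replicate 4, and 9 were highest in replicate 3. Igkv12-46 was an exception, at 7.28, 8.70, 8.33, 3.98 and 6.44, with its highest value in replicate 2. These genes belong to families with near-identical copies, so a probe set may read several members, and the values are uncertain for single genes.

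B cell genes outside the immunoglobulin loci varied too, though not in quite the same order. Pou2af1, a coactivator needed for germinal centres, measured 6.66, 4.70, 8.34, 4.79 and 6.54, with an SD of 1.51. Cd79b, a signalling chain of the B cell receptor, measured 7.44, 5.73, 8.03, 5.47 and 7.14. In both, replicate 3 was highest, and replicates 2 and 4 lay close together at the bottom. The B and plasma cell list of 16 genes also holds the immunoglobulin genes Igkc, Ighm and Iglv1, so its counts overlap with those of the immunoglobulin genes above. Of these 16 genes, 13 had a mean of at least 6, and 8 of the 13 had an SD of at least 0.5. Among all 16, 12 were highest in replicate 3, and the lowest value fell in replicate 4 for 9 genes and in replicate 2 for 7. To read such counts, over all 15780 genes replicates 1 to 5 held the highest value for 29.3%, 20.8%, 14.2%, 17.6% and 18% and the lowest for 15.9%, 28%, 17.1%, 19.2% and 19.7%. These shares depend on the level of expression. Among the 10791 genes with a mean of at least 6, replicates 1 to 5 were highest for 2315, 2739, 1706, 2201 and 1830. They were lowest for 2140, 2888, 1638, 1710 and 2415. All measured proximal tubule and matrix genes belong to this set.

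**Figure D2:**
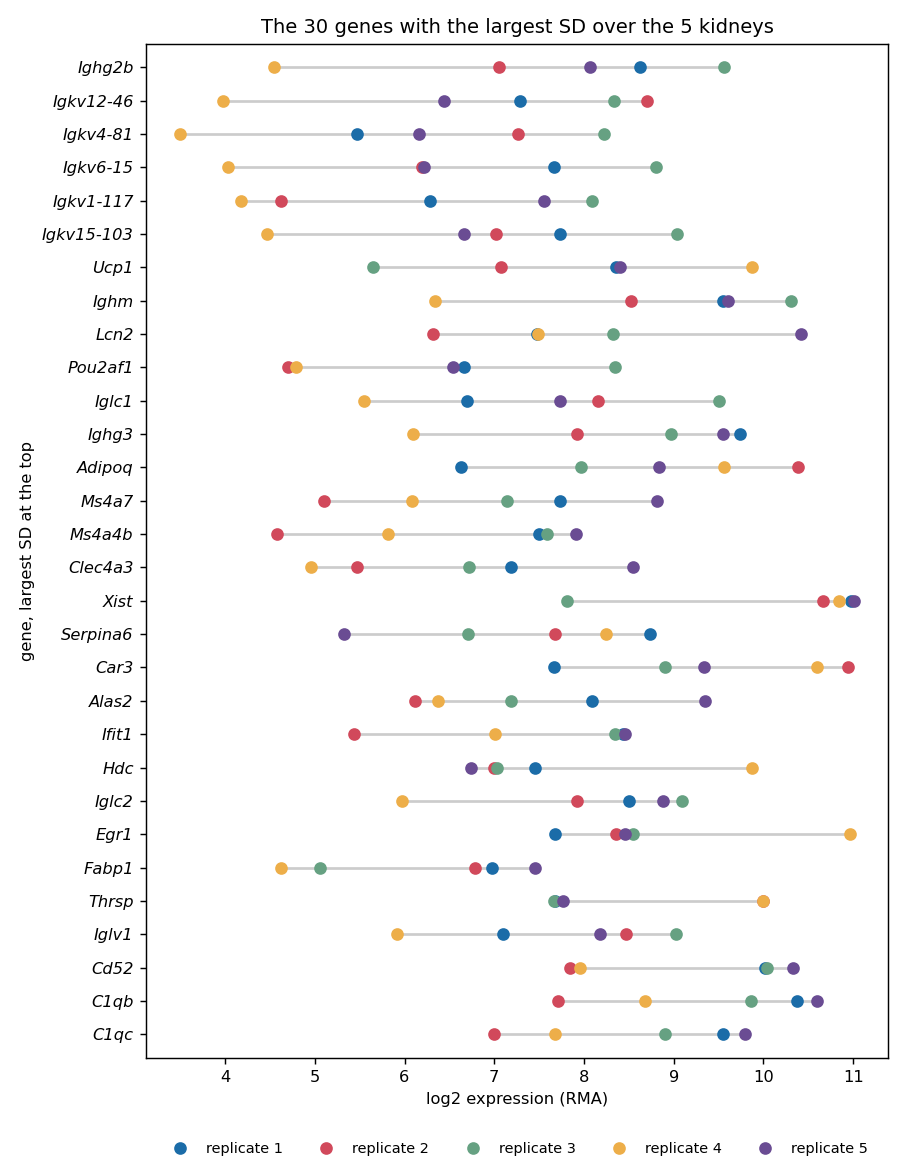
Log2 expression (horizontal axis) of the 30 genes with the largest SD over the 5 kidneys, 1 line per gene and 1 coloured point per kidney. Replicate 4 lies at the left end for all 11 immunoglobulin genes, replicate 5 is far to the right for Lcn2, replicate 4 for Hdc and Egr1, and replicate 3 far to the left for Xist.

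Macrophage genes had another kidney at the top. Ms4a7, a membrane protein of mature macrophages, measured 7.73, 5.10, 7.14, 6.08 and 8.81. C1qb, a chain of the complement starter C1q that tissue macrophages make, measured 10.38, 7.71, 9.86, 8.68 and 10.59. Replicate 5 was highest in both and replicate 2 lowest, and the range of C1qb was 7.37-fold. Ctss, the lysosomal protease cathepsin S, measured 10.87, 9.34, 10.85, 9.56 and 11.89. The other C1q chains followed C1qb, with SDs of 1.06 for C1qa and 1.21 for C1qc. Of 27 genes of the macrophage and dendritic cell list, 23 were highest in replicate 5 and 18 lowest in replicate 2. Its score was 7.64, 6.69, 7.30, 6.79 and 8.20, and of its 23 members with a mean of at least 6, 18 had an SD of at least 0.5.

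T cell genes and genes of all leukocytes gave the same pair of low kidneys. Cd52, a small surface protein of lymphocytes, measured 10.02, 7.84, 10.04, 7.95 and 10.33. Ms4a4b, found on T cells, measured 7.50, 4.58, 7.59, 5.82 and 7.92. In each, 3 kidneys were close together and replicates 2 and 4 lay clearly below. Cd3d, a chain of the T cell receptor complex, measured 6.77, 5.50, 6.87, 5.76 and 7.00. Ptprc, the pan-leukocyte phosphatase CD45, measured 8.93, 7.71, 9.18, 7.56 and 9.98. Coro1a, an actin regulator of leukocytes, measured 8.63, 6.55, 8.96, 6.88 and 8.73. The T cell score (20 genes) was 6.29, 5.50, 6.23, 5.65 and 6.42, and none of its genes was highest in replicate 2 or 4 or lowest in replicate 1, 3 or 5. Only 10 of the 20 had a mean of at least 6, and 5 of these an SD of at least 0.5, so much of this score lies low on the scale. The neutrophil list was far flatter, with a score of 5.93 to 6.30 over 11 genes, and 0 of its 7 members with a mean of at least 6 had an SD of at least 0.5. Pooled over macrophage, T cell, B cell and pan-leukocyte lists, the leukocyte score of 77 genes was 7.32, 6.44, 7.27, 6.43 and 7.61 (SD 0.54). Of these genes 44 were highest in replicate 5, 17 in replicate 3 and 15 in replicate 1, whereas 49 were lowest in replicate 2 and 26 in replicate 4. A mean of at least 6 was reached by 58 of the 77, and 41 of these had an SD of at least 0.5.

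Tubular genes varied less, and replicates 2 and 4 had the highest proximal tubule scores. Gatm, which makes the creatine precursor guanidinoacetate in the proximal tubule, measured 10.20, 12.72, 11.06, 12.01 and 10.43, a 5.76-fold range with an SD of 1.07. Slc6a19, the neutral amino acid transporter of the brush border, measured 8.82, 10.83, 9.08, 9.76 and 9.54. Replicate 2 was highest and replicate 1 lowest in both. Members of the list did not all share this order. Serpina6, which encodes corticosteroid-binding globulin, measured 8.74, 7.67, 6.71, 8.25 and 5.32 and was highest in replicate 1. Hpd, a tyrosine-degrading enzyme, measured 10.77, 11.57, 11.61, 10.11 and 10.22 and was lowest in replicate 4. The proximal tubule score was 11.26, 11.84, 11.39, 11.67 and 11.13 (SD 0.29). Of the 29 genes, all with a mean of at least 6, 10 had an SD of at least 0.5, and the median SD of 0.41 compares with 0.166 over all 15780 genes. Replicate 2 held the highest value for 17 genes, replicates 1 and 4 for 5 each and replicate 5 for 0. The lowest value fell in replicate 1 for 11 genes, in replicate 5 for 8 and in replicate 2 for 5. Of the 10791 genes with a mean of at least 6, 2739 were highest in replicate 2. Of the same genes 2140 were lowest in replicate 1 and 2415 in replicate 5, so the 8 in replicate 5 lie near that share.

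Further along the nephron the order changed. Slc12a3, the thiazide-sensitive sodium chloride cotransporter of the distal convoluted tubule, measured 11.41, 12.15, 12.33, 12.30 and 11.16. Here replicates 1 and 5 lay below the other 3 kidneys. The score of the loop and distal tubule (14 genes) was 10.65, 10.88, 10.92, 10.85 and 10.48, and that of the collecting duct (15 genes) 9.23, 9.01, 9.26, 9.04 and 9.07. Aqp4, a water channel of collecting duct cells, was the only measured collecting duct gene with an SD of at least 0.5, at 9.65, 10.41, 10.84, 10.69 and 9.48. Enzymes of fatty acid and amino acid breakdown (20 genes) scored 11.24, 11.58, 11.24, 11.28 and 11.24, level in 4 kidneys and higher in replicate 2. Ppara, the receptor that drives such enzymes, measured 8.70, 10.28, 9.50, 9.72 and 9.16. Genes of oxidative phosphorylation (17) scored 11.67 to 11.81, and none had an SD of at least 0.5.

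Injury genes did not share a single order. Lcn2, a lipocalin that injured tubules and neutrophils release, had rank 9 by SD (1.53), with 7.47, 6.32, 8.33, 7.49 and 10.41. Havcr1, kidney injury molecule 1 of the proximal tubule, measured 8.34, 8.69, 8.35, 9.73 and 8.50. Il1f6, an interleukin 1 family cytokine, measured 7.16, 6.52, 6.41, 6.88 and 7.25. Lcn2 was highest in replicate 5 and Havcr1 in replicate 4, and replicate 3, the next highest for Lcn2, was at or near the bottom for Havcr1 and Il1f6. Timp1, an inhibitor of matrix proteases, measured 6.81, 5.63, 6.26, 6.44 and 7.53. Socs3, a feedback inhibitor of cytokine signalling, measured 7.27, 6.36, 7.31, 6.98 and 8.09. Cd44, a hyaluronan receptor, measured 6.61, 5.81, 6.65, 5.58 and 7.13. These 3 and Lcn2 had their highest value in replicate 5. The injury score (23 genes) was 7.57, 7.19, 7.48, 7.59 and 7.87, and 12 genes were highest in replicate 5, 7 in replicate 4 and 11 lowest in replicate 2. Of the 18 members with a mean of at least 6, 5 had an SD of at least 0.5. Cd44 and Timp1 are also made by leukocytes and stromal cells.

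Matrix genes were ordered differently again. Col3a1, the chain of type III collagen, measured 11.36, 9.32, 9.31, 10.18 and 10.69. Col1a2, a chain of type I collagen, measured 9.38, 7.91, 7.81, 8.56 and 8.86. Both fell in the order replicate 1, 5, 4, 2 and 3, with replicates 2 and 3 nearly equal, and the ranges were 4.12-fold and 2.96-fold. Lum, the collagen-binding proteoglycan lumican, measured 8.18, 7.88, 6.31, 7.63 and 7.26. Tgfbi, which macrophages also express, measured 8.32, 7.46, 7.96, 7.19 and 8.87. Lum was lowest in replicate 3 and Tgfbi in replicate 4. The matrix score (29 genes) was 8.61, 8.25, 8.16, 8.58 and 8.44 (SD 0.20). Of its genes 12 were highest in replicate 1 and 9 in replicate 4, 15 were lowest in replicate 3, and 5 had an SD of at least 0.5.

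Set side by side, the 4 class scores placed the kidneys in different orders. The tubular score fell in the order 2, 4, 3, 1 and 5 and the leukocyte score in the order 5, 1, 3, 2 and 4, so the 2 kidneys highest for tubule were the 2 lowest for leukocytes. In the leukocyte score replicate 4 minus replicate 2 was -0.0077, so the order of these 2 carries nothing. The injury score fell in the order 5, 4, 1, 3 and 2. There replicate 4 exceeded replicate 1 by only 0.018, while replicate 2, low for leukocytes like replicate 4, was lowest. For the matrix score the order was 1, 4, 5, 2 and 3, with replicate 3 in the leukocyte-rich part of the range and at the bottom for matrix. Median centring and a further quantile normalization left all 4 orders as they were. With 5 kidneys no correlation was computed.

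**Figure D3:**
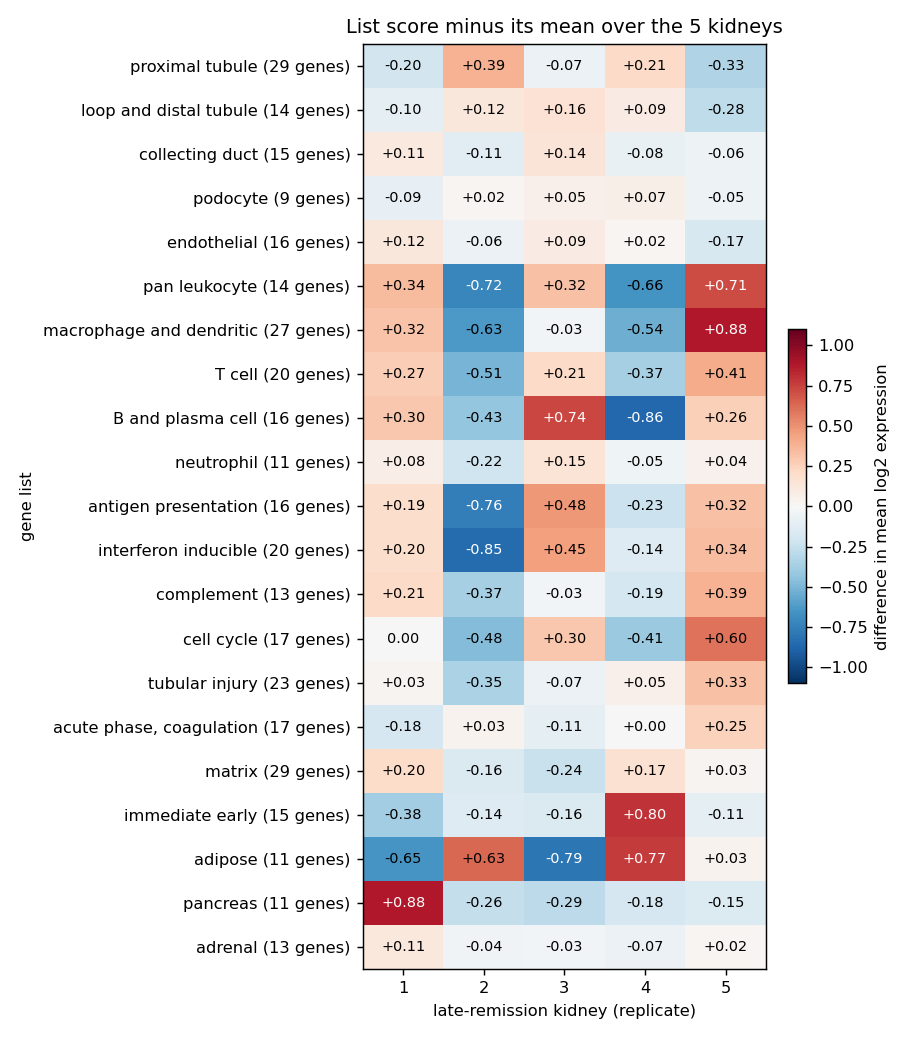
Score of 21 gene lists in each kidney minus the mean over the 5 kidneys (log2; red above, blue below, value printed in each cell). Replicates 2 and 4 are blue for most leukocyte lists and red for the proximal tubule and adipose lists, while immediate early genes stand out in replicate 4 and pancreas genes in replicate 1.

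Interferon-inducible genes separated replicate 2 from the other kidneys. Ifit1, which binds foreign RNA caps, measured 8.43, 5.44, 8.34, 7.01 and 8.46. Irf7, the transcription factor that amplifies the type I interferon response, measured 8.51, 6.19, 8.66, 7.53 and 8.58. Usp18, which restrains interferon receptor signalling, measured 7.96, 6.14, 8.04, 7.51 and 7.94. Replicates 1, 3 and 5 were nearly equal, replicate 4 lay below them, and replicate 2 was lowest. The list score (20 genes) was 7.91, 6.87, 8.17, 7.58 and 8.06, with 19 of 20 genes lowest in replicate 2 and 12 highest in replicate 3. Replicates 2 and 4 had thus nearly the same pooled leukocyte score but interferon scores 0.71 apart. The pooled score joins opposite differences, so leukocyte RNA was not matched in these kidneys. Replicate 4 was above replicate 2 in the macrophage (6.79 against 6.69), T cell (5.65 against 5.50) and pan-leukocyte (6.67 against 6.61) scores. It was below replicate 2 in the B and plasma cell score (6.59 against 7.03). Of the 19 members with a mean of at least 6, 9 had an SD of at least 0.5.

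Many interferon-inducible genes carry the interferon-stimulated response element near their start. A core of that element, GAAA followed after any 2 bases by a further GAAA, was searched on both strands (TTTC, any 2 bases and TTTC on the other) in the 250 bases before the start in the RefSeq promoter table, and occurrences may overlap. They were found in 6 of 14 interferon-list genes with a promoter there (42.9%), in 391 of 12585 measured genes (3.11%) and in 936 of 27025 of all genes (3.46%), as well as in 1 of 22 proximal tubule, 1 of 18 matrix and 3 of 21 macrophage and dendritic cell genes. The 200 bases before the start of 3 genes, chosen after their values were seen to show the element in members with an SD of at least 0.6, follow in GRCm38.p6, read 5′ to 3′ on the gene's own strand with the matched letters in capitals. Ifit1 is at chr19:34640689-34640888 on the plus strand, Gbp2, an interferon-induced GTPase, at chr3:142620463-142620662 on the plus strand, and Bst2, which tethers budding virus, at chr8:71537473-71537672 on the minus strand. In Bst2 the 2 matches overlap. A match describes the letters alone, and Irf7, with an SD of 1.06, had none in its window.
Ifit1: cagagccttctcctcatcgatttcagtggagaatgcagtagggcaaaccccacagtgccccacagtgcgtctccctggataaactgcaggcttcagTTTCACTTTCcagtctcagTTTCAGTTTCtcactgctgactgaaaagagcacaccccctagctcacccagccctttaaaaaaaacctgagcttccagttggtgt
Gbp2: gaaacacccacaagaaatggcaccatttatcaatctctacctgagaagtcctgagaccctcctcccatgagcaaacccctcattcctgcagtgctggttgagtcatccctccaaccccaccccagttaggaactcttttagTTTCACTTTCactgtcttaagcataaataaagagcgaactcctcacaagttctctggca
Bst2: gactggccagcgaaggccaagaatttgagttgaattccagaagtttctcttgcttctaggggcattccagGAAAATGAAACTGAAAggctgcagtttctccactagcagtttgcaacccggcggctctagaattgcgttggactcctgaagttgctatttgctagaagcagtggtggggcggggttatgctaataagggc

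Genes of antigen presentation kept nearly the order of the interferon list. H2-Aa, a class II chain, measured 11.31, 9.75, 11.29, 10.38 and 11.67, and Psmb8, an immunoproteasome subunit, 9.01, 7.58, 9.48, 8.21 and 9.06. The score (16 genes) was 9.29, 8.35, 9.58, 8.87 and 9.43, and 14 genes were lowest in replicate 2. Proliferation genes were highest in replicate 5 for 13 of 17 genes, with a score of 6.30, 5.83, 6.60, 5.89 and 6.90. Mki67, the Ki-67 antigen of cycling cells, measured 7.70, 6.60, 8.86, 7.33 and 8.77, so that replicate 3 was level with replicate 5.

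Replicate 4 differed from the rest in immediate early genes, which cells switch on within minutes of a stimulus. Egr1 measured 7.67, 8.36, 8.55, 10.97 and 8.45, and Junb 6.71, 6.83, 7.36, 8.16 and 7.08. The score (15 genes) was 7.29, 7.53, 7.51, 8.47 and 7.56, and 13 genes were highest in replicate 4. Hdc, which makes histamine from histidine, was also high in replicate 4, at 7.46, 7.00, 7.03, 9.88 and 6.74. For Havcr1 this kidney was likewise the highest. The handling of each kidney is not described, and the part of tissue handling was not tested.

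Markers of tissues outside the kidney varied as well. Adiponectin (Adipoq), which fat cells secrete, measured 6.63, 10.38, 7.96, 9.56 and 8.84. Ucp1, the uncoupling protein of brown fat, measured 8.36, 7.07, 5.65, 9.87 and 8.40. Both had large SDs, 1.45 and 1.59, but different kidneys at each end. The adipose score (11 genes) was 7.54, 8.82, 7.40, 8.96 and 8.22, with 8 genes lowest in replicate 3. Its 2 highest kidneys were the 2 with the highest proximal tubule score, and its part in the tubular and leukocyte differences was not tested. The pancreas score (11 genes) was 7.35, 6.21, 6.18, 6.29 and 6.32, and 10 of 11 genes were highest in replicate 1. Alas2, the haem enzyme of red blood cell precursors, measured 8.09, 6.12, 7.19, 6.37 and 9.35. Adrenal genes were near the bottom of the scale in all 5 kidneys, with a score of 5.49 to 5.67 over 13 genes. The urothelium score was 6.29 to 6.46 (10 genes) and the skeletal muscle score 5.49 to 5.74 (13 genes).

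Taking each kidney against the mean of the other 4, replicate 5 was more than 2-fold higher for 81 genes and lower for 8, whereas replicate 2 was higher for 59 and lower for 97 of the 10791 genes. Replicate 4 was higher for 31 and lower for 67, replicate 1 higher for 18 and lower for 30, and replicate 3 higher for 27 and lower for 21. The first principal component held 54.5% of the variance, with positions 18.2, -22.5, 2.56, -17.6 and 19.3. Without replicate 3 it held 66.2%. The actin 3′ excess rose and the array SD fell in nearly the same order: replicates 2 and 4 had the 2 lowest actin values (0.66 and 0.86) and the 2 highest array SDs, and replicates 1 and 5 the opposite. The Gapdh difference was 0.42, -0.06, 0.18, 0.18 and 0.37. The remaining pairs of 3′ and 5′ probe sets did not share this order. For pyruvate carboxylase the difference was 3.18, 2.32, 2.69, 3.22 and 3.21, highest in replicate 4, and for the transferrin receptor it was 1.54, 1.82, 1.78, 1.69 and 1.60, lowest in replicate 1 and highest in replicate 2. The part of RNA length in the component and in the leukocyte and tubular scores was not tested. The second component (21.0%) placed replicates 2 and 5 at 14.3 and 9.43 and replicates 3 and 4 at -14.1 and -9.82.

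**Figure D4:**
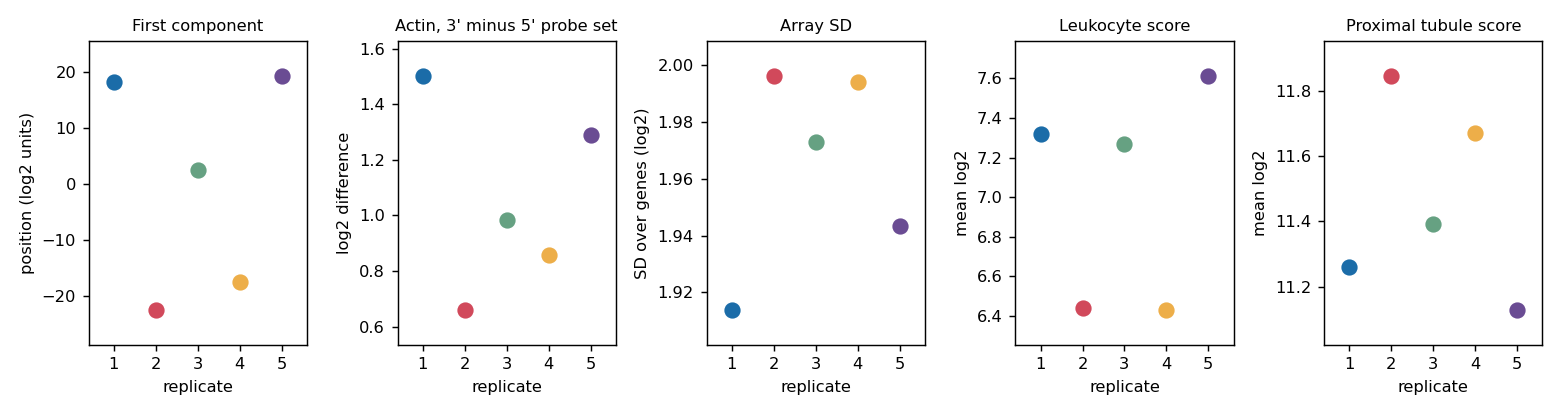
The 5 kidneys (horizontal axis, replicate number) by position on the first principal component, the log2 difference between the 3′ and 5′ actin probe sets, the SD of the array, and the leukocyte and proximal tubule scores. Replicates 2 and 4 have the lowest component positions, actin differences and leukocyte scores and the highest array SDs and tubule scores.

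The spread was compared with the other NZB/W groups by testing, gene by gene with limma, the absolute deviation of each kidney from its group mean, adjusted by Benjamini-Hochberg over 15780 genes with a threshold of 0.05. Against early remission, 101 genes (0.64%) were spread more widely in the TACI-Ig kidneys and 12 (0.076%) more narrowly. The wider genes held 9 of the 77 leukocyte genes, namely Coro1a, Hcls1, Rac2, Laptm5, Aif1, Cd3d, Cd28, Cd79b and Ms4a1, and none of the 29 proximal tubule, 23 injury, 29 matrix or 20 interferon-list genes. They were not confined to leukocyte lists. The oxidative phosphorylation list held 2 of 17 genes. The podocyte (9 genes), adipose (11), loop and distal tubule (14), proliferation (17) and fatty acid and amino acid enzyme (20) lists held 1 each. Aif1, an actin-binding protein of activated macrophages, measured 7.78, 5.78, 7.32, 6.31 and 8.24, an SD of 1.02 against 0.22 in early remission (limma adjusted p = 0.0368). Slc12a3 had an SD of 0.54 against 0.14 (limma adjusted p = 0.0168), and Podxl, the sialomucin podocalyxin of podocytes and endothelium, had 0.30 against 0.078 (limma adjusted p = 0.0156). By ratio of SDs, P2ry10, Fcrl1, Siah2, Ifi35 and Hoxb2 stood first. P2ry10, a lysophosphatidylserine receptor of lymphocytes, measured 4.99, 4.05, 5.11, 3.59 and 5.45, an SD of 0.79 against 0.097 (limma adjusted p = 0.0137), with all 5 values below 6. Of the narrower genes, 7 were among the 13 adrenal genes, whose score of 5.49 to 5.67 in the TACI-Ig kidneys compares with 5.30 to 8.27 in early remission. The narrow spread is thus that of genes near the bottom of the scale, set against a group that ran from the same level to well above it. Cyp11a1, the first enzyme of steroid synthesis, had an SD of 0.14 around a mean of 4.75, against 1.79 in early remission (limma adjusted p = 0.00894), and Star, Chga, Chgb and Scg2 differed in the same direction.

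These calls were not stable. With deviations taken from the group median, 0 genes were wider and 4 narrower, with squared deviations 0 genes were called, and between 15 and 97 of the 101 wider genes were kept when a kidney of either group was left out, 0 of them in every such fit. The TACI-Ig group has an odd number of kidneys, so with the median its middle kidney has no deviation, unlike in early remission. At an unadjusted p under 0.05, limma counted 2251 wider and 120 narrower genes of 15780. Genes moved together across the 5 kidneys, with 54.5% of the variance on the first principal component. Such counts are therefore not counts of independent results and do not show a general widening. The same limit holds for the other unadjusted counts given below.

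Against the 30-week and late triple-therapy kidneys no gene passed (0%, 0 of 15780 in either direction with limma), although 1802 genes were wider and 198 narrower at an unadjusted p under 0.05 in the former and 1238 and 110 in the latter. A joint limma fit of the 4 NZB/W groups called 50 and 6 genes. The count of 0 against 30 weeks did not hold when single kidneys were left out. Without replicate 2 of the untreated kidneys, 449 genes were wider and 25 narrower, and without any other untreated kidney the count stayed at 0. Without TACI-Ig replicates 1 to 5 in turn, 23, 181, 123, 8 and 5 genes were wider and 0, 5, 1, 0 and 0 narrower. Against late triple therapy, leaving out TACI-Ig replicate 3 gave 263 wider and 2 narrower genes, and leaving out replicate 2 gave 38 and 0. The gene means of the late triple-therapy group coincided with the joint means of the TACI-Ig and 30-week kidneys (largest difference 0.0255), so its levels relative to those groups carry no information, and whether the batch correction also changed its spread is not known. Genes that varied in the TACI-Ig kidneys tended to vary elsewhere: of the 370 genes with an SD of at least 0.5, 45.7% reached it at 30 weeks, 27% in early remission and 48.1% in the late triple-therapy group, where 2.08%, 1.71% and 2.17% of all 10791 genes did.

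**Figure D5:**
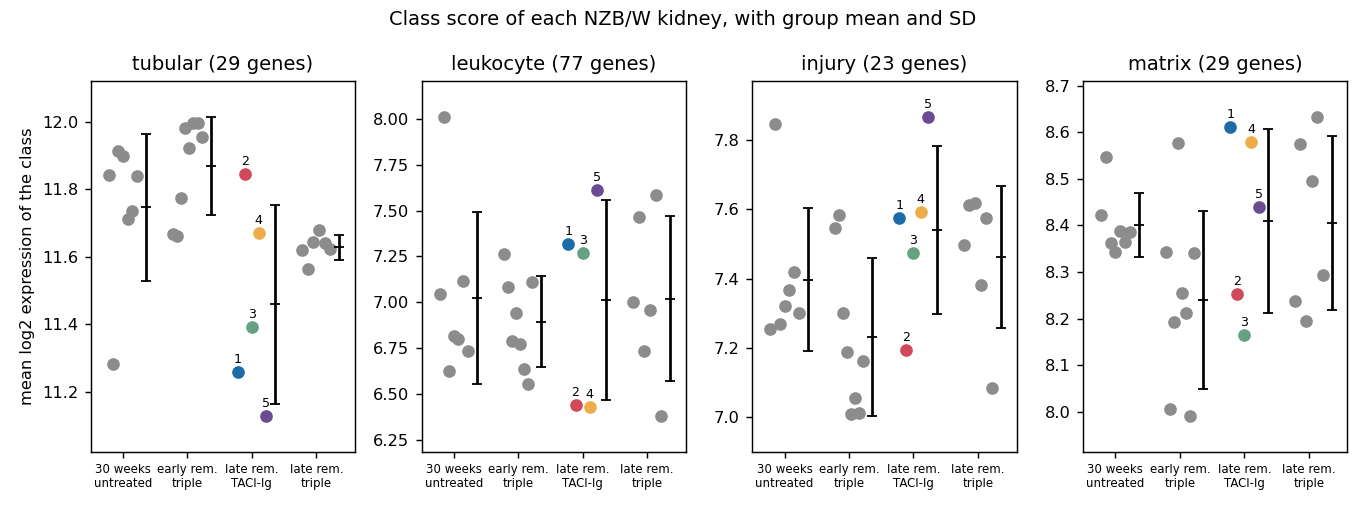
Mean log2 expression of the tubular, leukocyte, injury and matrix classes in each kidney of the 4 NZB/W groups, with the mean and SD of each group as a bar to its right, and the TACI-Ig kidneys coloured and numbered. The TACI-Ig tubular scores span 11.13 to 11.84, while those of late remission after triple therapy lie between 11.56 and 11.68.

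The class scores were compared by mean absolute deviation from the group median, in 12 two-sided exact permutation tests. Exact means here that all arrangements of the deviations were counted. The deviations were taken from each group's own median beforehand and, unlike in the limma test, were not corrected for group size. The p-values are therefore approximate. The TACI-Ig tubular score had an SD of 0.29, against 0.22 at 30 weeks, 0.15 in early remission and 0.038 in the late triple-therapy group, for which the effect of the batch correction on spread is not known. The smallest p was that of the last comparison (difference in mean deviation 0.20, exact permutation p = 0.0303, 0.318 after adjustment). For the leukocyte score the SD was 0.54 against 0.47, 0.25 and 0.45, and its difference from early remission was 0.21 (exact permutation p = 0.21, 0.629 after adjustment). The matrix score had an SD of 0.20 against 0.069 at 30 weeks (difference 0.11, exact permutation p = 0.053, 0.318 after adjustment), 0.19 in early remission and 0.19 in the late triple-therapy group. The injury SD of 0.24 was close to 0.21, 0.23 and 0.20 in the other groups. None of the 12 tests passed after adjustment. With replicate 1, 3 or 5 of the TACI-Ig kidneys left out, the leukocyte difference from early remission did pass (0.30, 0.31 and 0.22, adjusted exact permutation p = 0.0485, 0.0485 and 0.0364). In a group with an odd number of kidneys the middle kidney has no deviation from the median, which does not hold for an even number. Leaving out a kidney changes this too, so these p-values cannot be read as the effect of single kidneys alone.

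In the other NZB/W groups, where 6 or more kidneys allowed it, the class scores were correlated with each other in 18 tests. Tubular and leukocyte scores had r = -0.94 at 30 weeks (rho = -0.61, exact permutation p = 0.0194 and 0.167, adjusted 0.0943 and 0.333, n = 7), and r = -0.80 with the 2 kidneys farthest from the median left out. They had r = -0.64 in early remission (rho = -0.67, exact permutation p = 0.093 and 0.0831, adjusted 0.184 and 0.317, n = 8), and r = -0.12 without the 2 farthest. Those 2 were picked by the tubular score itself, and leaving them out narrows its range, which can weaken r. The lower r thus does not settle how far the relation rests on those kidneys. Late remission after triple therapy gave r = -0.31 (rho = -0.31, exact permutation p = 0.597 and 0.564, adjusted 0.717 and 0.846, n = 6). For tubular and injury scores r was -0.98 at 30 weeks and -0.93 in early remission (rho = -0.79 and -0.71, exact permutation p = 0.00794 and 0.00332 for r and 0.048 and 0.0576 for rho, adjusted 0.0714, 0.0598, 0.317 and 0.317), and -0.77 and -0.69 without the 2 farthest kidneys. In the late triple-therapy group the same pair had r = -0.22 (rho = -0.086, exact permutation p = 0.597 and 0.919, adjusted 0.717 and 0.974, n = 6), and r = 0.63 without the 2 farthest kidneys. The other pairs follow in the order 30 weeks, early remission and late triple therapy. Leukocyte and injury scores had r = 0.94, 0.78 and 0.72, and -0.20, 0.59 and 0.21 without the 2 kidneys farthest on the leukocyte score. For leukocyte and matrix scores r was 0.91, 0.38 and 0.80, and 0.69, 0.024 and 0.79 without the 2 farthest. Tubular and matrix scores had r = -0.91, 0.23 and -0.15, and -0.19, 0.096 and 0.31 without the 2 farthest on the tubular score. Injury and matrix scores had r = 0.86, -0.06 and 0.25, and -0.30, 0.40 and 0.27 without the 2 farthest on the injury score. At 30 weeks rho was -0.71 for tubular and matrix scores and 0.21 for injury and matrix scores. None of the 18 passed after adjustment.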

How the data were processed

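Per the labels and the study's methods, total RNA of whole kidneys, perfused with saline, was hybridized to Affymetrix arrays. The deposited values are log2 expression values, made by the authors with RMA, 1 probe set per Entrez gene, and normalized and batch-corrected together over arrays. The batches, the software versions and whether the correction also rescaled the spread of genes are not given in the sources used here. The mean of each gene in late remission after triple therapy lay within 0.0255 of the joint mean of the TACI-Ig and 30-week kidneys, so differences in level from that group carry no information. Precision is limited by the number of arrays, which have no depth.

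Of 16539 probe sets, 64 controls and 695 without a gene name were left out, and 15780 named genes were used as deposited (15752 found in RefSeq). Kidneys were grouped by the labels. SDs were ranked among genes with a mean of at least 6, and 27 gene lists with 493 entries (434 measured) were scored as mean log2 values. Genes named are the 30 with the largest SD, up to 4 per list by SD, Lcn2, Havcr1 and Il1f6, those around the filter and rank 30, and up to 5 per direction by ratio of SDs among called genes. Further genes (Bst2, Hcls1, Rac2, Cd28, Ms4a1, and Psmb8 and others by list) were named after their values were seen. The members, lists and rule were chosen with earlier results of these data known. Spread was tested with limma 3.58.1 in R 4.3.3 on absolute deviations from the group mean times the square root of n/(n - 1), and class scores with exact permutation tests (Python 3.11.15, numpy 2.4.6, scipy 1.17.1, pandas 2.3.3). Only the limma test was also run on simulated data. Alternatives were deviations from the median, squared deviations, stricter filters, median centring, quantile normalization, a joint fit, the replicate number as a block, class medians and each kidney left out in turn. Figures were drawn with matplotlib 3.10.9. No column of values was left out.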

Additional observations from a re-analysis of the deposited data

Results flagged for a closer look

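Of 169 values tested with Dixon's criterion over the 5 kidneys, namely named genes, list scores and array measures, 14 had a kidney that stood apart from the other 4. Chance alone would mark about 1 in 20 values not chosen for their spread. Most of the named genes were chosen for a large SD over these same 5 kidneys, so that rate does not apply to them and the values below are a description. The genes of a list are also not independent of its score. Replicate 4 stood apart in 5 of them: Egr1 at 10.97 (others 7.67 to 8.55), Hdc at 9.88 (6.74 to 7.46), Nr4a1 at 9.96 (7.96 to 8.53), Havcr1 at 9.73 (8.34 to 8.69) and the immediate early score at 8.47 (7.29 to 7.56). Replicate 1 was the highest for the pancreas enzymes Ctrl (7.66, others 6.31 to 6.67) and Prss2 (7.48, others 6.32 to 6.56) and for the pancreas score (7.35, others 6.18 to 6.32). In replicate 5, Calb1, the calcium-binding calbindin of the distal tubule, measured 11.23 (others 12.03 to 12.25), Kdr, a receptor for vascular growth factor on endothelium, 8.32 (others 9.09 to 9.26), and Slc25a37, a mitochondrial iron carrier, 8.98 (others 8.25 to 8.44). Replicate 2 stood apart in Usp18, at 6.14 (others 7.51 to 8.04), and in the score of fatty acid and amino acid enzymes, at 11.58 (others 11.24 to 11.28). Replicate 3 stood apart in Xist, at 7.81 (others 10.67 to 11.01). No cause of these values was tested.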

How the results depend on the processing

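The array number and the batch correction, whose batches are unnamed, limit what the spread of 5 kidneys can show. The count of genes spread differently from early remission, 113, was 4 with deviations from the median, 0 with squared deviations, 74 among genes with a mean of at least 6, 44 with a mean of at least 7, 230 after quantile normalization and 74 in the joint fit, and it ran from 21 to 844 with a kidney left out. Against 30 weeks the count of 0 became 50 in the joint fit and ran from 0 to 474 with a kidney left out, and against late triple therapy it became 6 and ran from 0 to 265. The replicate numbers do not pair the kidneys: deviations of same-numbered kidneys had correlations of -0.71 to 0.03 with 30 weeks and -0.13 to 0.12 with early remission, and 0 of 5 kidneys fitted their own number best in either. With the replicate number as a block, 1 gene was called against early remission and 0 against 30 weeks. The latter had 1350 wider and 176 narrower genes at an unadjusted limma p under 0.05.

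With class medians in place of means, the difference in spread changed sign for injury against 30 weeks (-0.13) and late triple therapy (-0.11) and for matrix against early remission (-0.0192), and no class passed. With a kidney left out, differences from 30 weeks ran from 0.036 to 0.164 (tubular), 0.017 to 0.275 (leukocyte), -0.013 to 0.111 (injury) and 0.083 to 0.152 (matrix, adjusted exact permutation p = 0.0364 without TACI-Ig replicate 5). From early remission they ran from 0.055 to 0.168, 0.099 to 0.309, -0.070 to 0.025 and -0.015 to 0.053, and from late triple therapy from 0.143 to 0.256 (adjusted exact permutation p = 0.0381 without TACI-Ig replicate 5), -0.024 to 0.185, -0.038 to 0.088 and -0.039 to 0.030, in the same order of classes. Leaving out a kidney also turns an odd number into an even one or the reverse, which by itself changes the deviations from the median. With class genes of mean at least 6, the tubular and injury correlation passed at 30 weeks (r = -0.987) and in early remission (r = -0.926), both with an adjusted exact permutation p of 0.0446. With class medians neither passed (r = -0.90 and -0.49, adjusted exact permutation p = 0.246 and 0.382), and late triple therapy gave r = -0.62 in place of -0.22 (adjusted exact permutation p = 0.369).

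The number of genes with an SD of at least 0.5 was 301 to 453 with a kidney left out, the median SD 0.167 to 0.186, and 0.166 with no filter on the mean, and the first component held 54.6% to 66.2%. The 12 counts of list genes highest or lowest in a kidney, a check added after the data were seen, stayed within 1.5 times under median centring and quantile normalization. The causes of these changes were not tested.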

Other observations

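The mean score of clock genes, which cycle over the day, varied little, but its members varied more than most genes. Their median SD was 0.264, against 0.166 over all 15780 genes. A mean score can level out members that move in opposite directions. The score of 16 genes was 7.60, 7.73, 7.30, 7.51 and 7.59, with an SD of 0.16 against 0.26 at 30 weeks, 0.20 in early remission and 0.21 in the late triple-therapy group. Of the 16, 8 were lowest in replicate 3, as were 17.1% of all genes, and of the 13 with a mean of at least 6, 3 had an SD of at least 0.5. Per2, a repressor of the clock, measured 7.02, 7.48, 5.85, 6.39 and 7.05, and Arntl, an activator that peaks at another time of day, 6.76, 7.20, 7.66, 7.27 and 6.43. Replicate 3 was lowest for the former and highest for the latter. Dbp, an output gene of the clock, measured 9.60, 9.17, 8.25, 9.14 and 9.59, also lowest in replicate 3, and had an SD of 0.55 against 1.40 at 30 weeks and 1.23 in early remission (limma adjusted p = 0.299 for the latter difference in spread). The hour at which each kidney was taken is not given in the sources used here, and its part was not tested.

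Liver-type proteins of the acute phase and coagulation list were spread without a shared order. Serpina10, an inhibitor of coagulation factors, measured 9.69, 7.50, 8.76, 8.88 and 8.65, Fgg, a fibrinogen chain, 7.58, 8.73, 8.91, 8.28 and 9.17, and Saa3, an acute phase protein, 6.69, 6.41, 6.91, 6.18 and 7.84. Replicate 1 was highest for Serpina10 and lowest for Fgg, and replicate 5 was highest for Fgg and Saa3. Fabp1, a fatty acid carrier, measured 6.98, 6.79, 5.05, 4.63 and 7.45.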
